A study of Homo sapiens with 4 samples.

Results

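Protein phosphatases remove the phosphate groups that kinases attach to tyrosine, serine and threonine residues. Receptor tyrosine phosphatases span the plasma membrane and often carry adhesion-like outer domains, whereas non-receptor members work in the cytoplasm and nucleus. Serine-threonine phosphatases such as PP1 and PP2A pair a small set of catalytic subunits with many regulatory subunits that direct them to their substrates. The phosphatases described here were taken by gene symbol: the PTPN, PTPR, PTP4A, DUSP, PPP1 to PPP6 and PPM1 families, without DUSP4, DUSP5 and DUSP6, as measured by probes with exactly 1 symbol. This gave 219 of 26629 probes and 118 of 12483 genes. The rule uses no measured value, but the members were chosen with earlier results of these data known.

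The values come from 4 arrays, each comparing 2 RNA samples of A549, a human lung adenocarcinoma cell line, labelled with Cy3 and Cy5. On every array a let-7a-3 overexpressing culture was set against a parental culture with no transgene, both grown in DMEM with fetal calf serum and untreated. The labels name neither the culture behind each numbered RNA source nor the log base, nor which dye is divided by which. A sign below is therefore the sign of the deposited log ratio and names no culture, and with the ratio turned every sign would change. Per the labels, the number series of the RNA sources swap dyes between arrays 1 and 3 on one side and arrays 2 and 4 on the other. That exchange was read as the stated dye swap. Vector controls are not among the groups, so transfection and let-7a-3 cannot be told apart, and whether the transfected cultures came from 1 clone is not stated.

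The microRNA behind the comparison is shown first, because its seed is the part that pairs with target RNAs. The gene MIRLET7A3 lies on the plus strand at chr22:46112749-46112822 (GRCh38.p14, sequences from RefSeq), and the capitals mark the mature arms in the hairpin and the seed (bases 2 to 8) in each arm.

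let-7a-3 hairpin: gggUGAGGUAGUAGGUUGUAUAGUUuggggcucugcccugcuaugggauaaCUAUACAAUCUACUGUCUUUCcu

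hsa-let-7a-5p: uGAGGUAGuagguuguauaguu

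hsa-let-7a-3p: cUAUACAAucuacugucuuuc

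A limma model with an intercept and a dye orientation term gave each probe a shared component, the mean over the 4 arrays, and an alternating component, which changes sign with the orientation. The alternating component is given with the sign of arrays 1 and 3. The culture difference is the shared component if the authors had already flipped the swapped arrays, and the alternating one if they had not. The labels do not settle this, so both are reported. A probe, gene or pair of clones is called when its limma p-value, adjusted by Benjamini-Hochberg over the whole table, is under 0.05. The ± values are SDs over the 4 arrays and still hold the other component. The p-values rest on the spread between arrays of the same orientation, moderated over the whole table, so a ± value is not their error. Since the table holds no intensities, levels and detection are unknown. The number of arrays limits the precision.

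In the shared component 4 phosphatase probes of 219 were called (1.83%), against 2.07% of all 26629 probes. They were clones of PTPRF and PTPN13, with negative log ratios, and of PTPN12 and PTP4A2, with positive ones. In the alternating component 11 were called (5.02%), against 4.28% of all probes, 9 positive and 2 negative. They belonged to PTPRK, PTPRD (2 clones), PTPRF, PTPN2, PPP1R42, PPP1R7, PPP2R2B, PPP2R5E, PPP2R3A and PPP2R3B. Both shares lay near those of the whole table. The phosphatases also resembled all probes in the size of their log ratios, with a median absolute value of 0.050 against 0.051 in the shared component and 0.075 against 0.074 in the alternating one. Leaving out array 1, 2, 3 or 4 gave shared counts of 4, 2, 7 and 2 phosphatase probes, against 509, 271, 884 and 286 of all probes. The alternating counts were 15, 1, 10 and 3 phosphatase probes, against 1874, 113, 1132 and 138 of all probes, so the counts moved with those of the whole table.

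**Figure D1:**
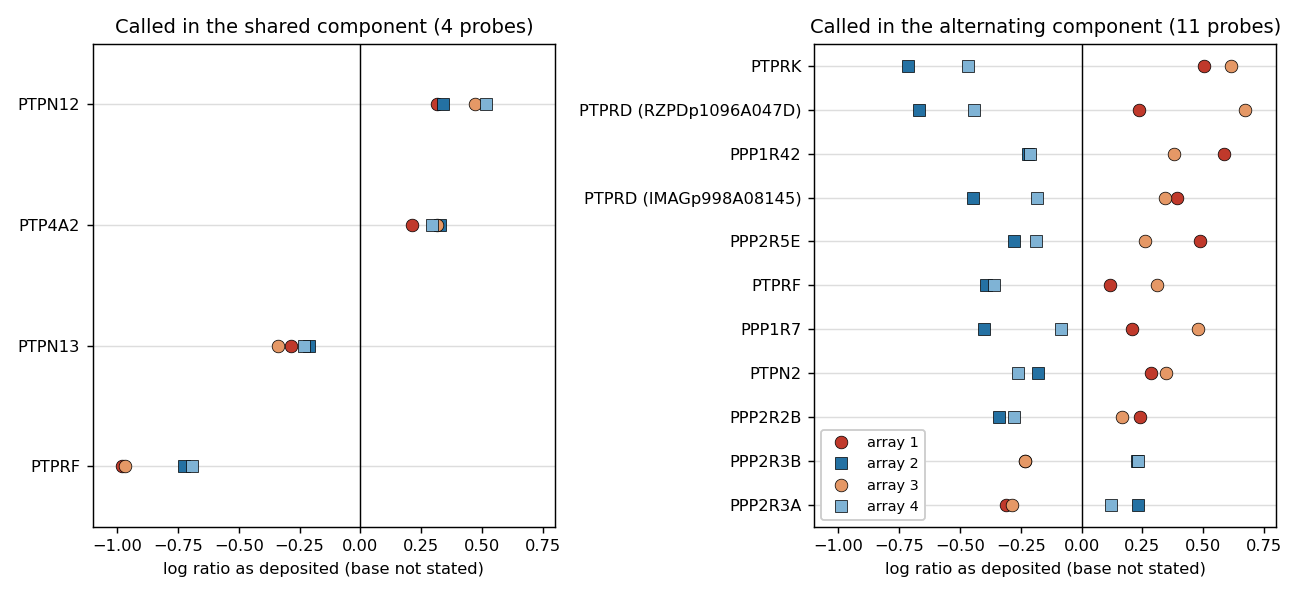
Log ratio as deposited on each of the 4 arrays for the phosphatase probes called in the shared component (left, 4 probes) and in the alternating component (right, 11 probes). Circles are arrays 1 and 3 and squares arrays 2 and 4; the 4 PTPRF points on the left lie between -0.98 and -0.69, and on the right circles and squares of each probe fall on opposite sides of 0.

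PTPRF, also known as LAR, is a receptor phosphatase found at cell-cell and cell-matrix contacts. Its clone IMAGp998P19276 had log ratios of -0.98, -0.73, -0.97 and -0.69 on arrays 1 to 4. All 4 arrays were negative, with arrays 1 and 3 lower than arrays 2 and 4. The shared component was -0.84 ± 0.15 (SD, n = 4; limma adjusted p = 2.05e-05), the lowest of the 219 probes, and the alternating component of this clone was -0.13 (adjusted p = 0.134). Without each array in turn the shared value stayed between -0.85 and -0.83.

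The other PTPRF clone, IMAGp998C16113, behaved differently. It stood at 0.12, -0.39, 0.31 and -0.36 on arrays 1 to 4, positive in one dye orientation and negative in the other. Its shared component was -0.083 ± 0.35 (adjusted p = 0.583) and its alternating component 0.30 ± 0.13 (SD, n = 4; adjusted p = 0.0284), a call that ended on leaving out array 2 (adjusted p = 0.148) or array 4 (adjusted p = 0.126). PTPRF was thus called in both components, but by different clones. The difference between the clones, IMAGp998C16113 minus IMAGp998P19276, was itself called in the shared component (0.76, limma adjusted p = 0.000147 over 14670 pairs of clones of 1 gene) and in the alternating one (0.43, adjusted p = 0.00895). Both differences were also called without each array in turn. The mean of the 2 clones was -0.43, -0.56, -0.33 and -0.53, negative on 4 of 4 arrays, and PTPRF passed at the gene level (-0.46 ± 0.10; adjusted p = 0.000775).

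PTPRK is a receptor phosphatase whose outer part binds the same molecule on neighbouring cells. It had 5 clones, of which IMAGp998F21151 was at 0.50, -0.71, 0.61 and -0.47 on arrays 1 to 4. This clone had the largest alternating component of the 219 probes (0.57 ± 0.11, SD, n = 4; adjusted p = 0.0076) and a shared component of -0.016 (adjusted p = 0.938). The alternating value was also called without each array in turn.

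The 4 other PTPRK clones had alternating components between -0.096 (IMAGp998I22175) and 0.11 (IMAGp998G122038), none of them called in either component. IMAGp998I22175 was at -0.35, -0.11, -0.19 and -0.05, negative on every array (shared -0.18 ± 0.13, adjusted p = 0.163). IMAGp998A11212 was also negative on all arrays, at -0.081, -0.15, -0.13 and -0.091 (shared -0.11 ± 0.032, adjusted p = 0.393). IMAGp998G122038 (0.012) and IMAGp998M034432 (0.019) had shared components near 0. Of the 10 pairs of PTPRK clones 4 differed in the alternating component, by 0.46 to 0.67 in size (limma adjusted p between 0.00162 and 0.00812). All 4 were pairs with IMAGp998F21151, so they are not independent. Of all 14670 pairs 8.06% were called in this component. None of the 10 pairs was called in the shared component. Averaged over its 5 clones, PTPRK did not pass in the shared (-0.055, adjusted p = 0.588) or the alternating component (0.13, adjusted p = 0.108).

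PTPRF and PTPRK, whose clones differed, have 1 RefSeq start window each, and it is shown here as the annotated start of the gene. Where each clone lies in its gene, and whether the transcripts it detects start in this window, was not looked at. The windows run from 250 bases before to 50 after the annotated start (GRCh38.p14). PTPRF lies on the plus strand at chr1:43530633-43530932 and PTPRK on the minus strand at chr6:128520550-128520849, and both are printed 5′ to 3′ along the gene. Capitals mark matches to GGGCGG on either strand.

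PTPRF: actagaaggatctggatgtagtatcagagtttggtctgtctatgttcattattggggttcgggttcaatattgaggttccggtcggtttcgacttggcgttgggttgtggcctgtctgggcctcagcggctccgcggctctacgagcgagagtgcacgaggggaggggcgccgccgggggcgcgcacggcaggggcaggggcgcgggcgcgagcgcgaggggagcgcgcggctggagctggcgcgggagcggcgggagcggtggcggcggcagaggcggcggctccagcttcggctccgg

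PTPRK: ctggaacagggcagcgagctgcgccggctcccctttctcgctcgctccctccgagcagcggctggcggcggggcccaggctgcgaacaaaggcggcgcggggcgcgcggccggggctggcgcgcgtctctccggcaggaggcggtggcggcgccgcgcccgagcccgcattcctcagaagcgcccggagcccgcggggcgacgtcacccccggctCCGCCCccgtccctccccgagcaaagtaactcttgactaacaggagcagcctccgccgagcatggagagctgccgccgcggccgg

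The PTPRF window had 68.7% G and C and the PTPRK window 76.3%. PTPRK held 1 match to GGGCGG and PTPRF held none, while 45.0% of all 35116 windows held at least 1. PTPRF held 1 CCAAT (34.6% of all windows) and neither held TATAAA (11.5% of all windows). The motifs were searched on both strands, and matches of different motifs may overlap. RefSeq windows were found for 97 of the 118 phosphatase genes, 148 windows in all, and 64.2% of these held GGGCGG, with a median of 66.5% G and C against 58.7% over all windows.

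PTPRD belongs to the same LAR group of receptors as PTPRF. Of its 4 clones 2 were called in the alternating component. Clone RZPDp1096A047D was at 0.24, -0.67, 0.67 and -0.44 on arrays 1 to 4 (alternating 0.50 ± 0.21, SD, n = 4; adjusted p = 0.0151). Clone IMAGp998A08145 was at 0.39, -0.45, 0.34 and -0.18 (alternating 0.34 ± 0.11; adjusted p = 0.0237). In both clones the positive and the negative arrays were divided by dye orientation, and both calls were lost without array 2. The 2 other clones did not follow the orientation: IMAGp998H10615 was at -0.35, -0.11, -0.033 and 0.086, and IMAGp998O12872 at 0.22, 0.25, 0.075 and -0.031. Of 6 pairs of PTPRD clones 3 differed in the alternating component, against 8.06% of all pairs. Of these 3, 2 were pairs with IMAGp998H10615, which were also called without each array in turn. The difference between IMAGp998O12872 and RZPDp1096A047D was not called without array 2 or array 3. The gene mean of PTPRD was 0.19 in the alternating component (adjusted p = 0.0565).

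**Figure D2:**
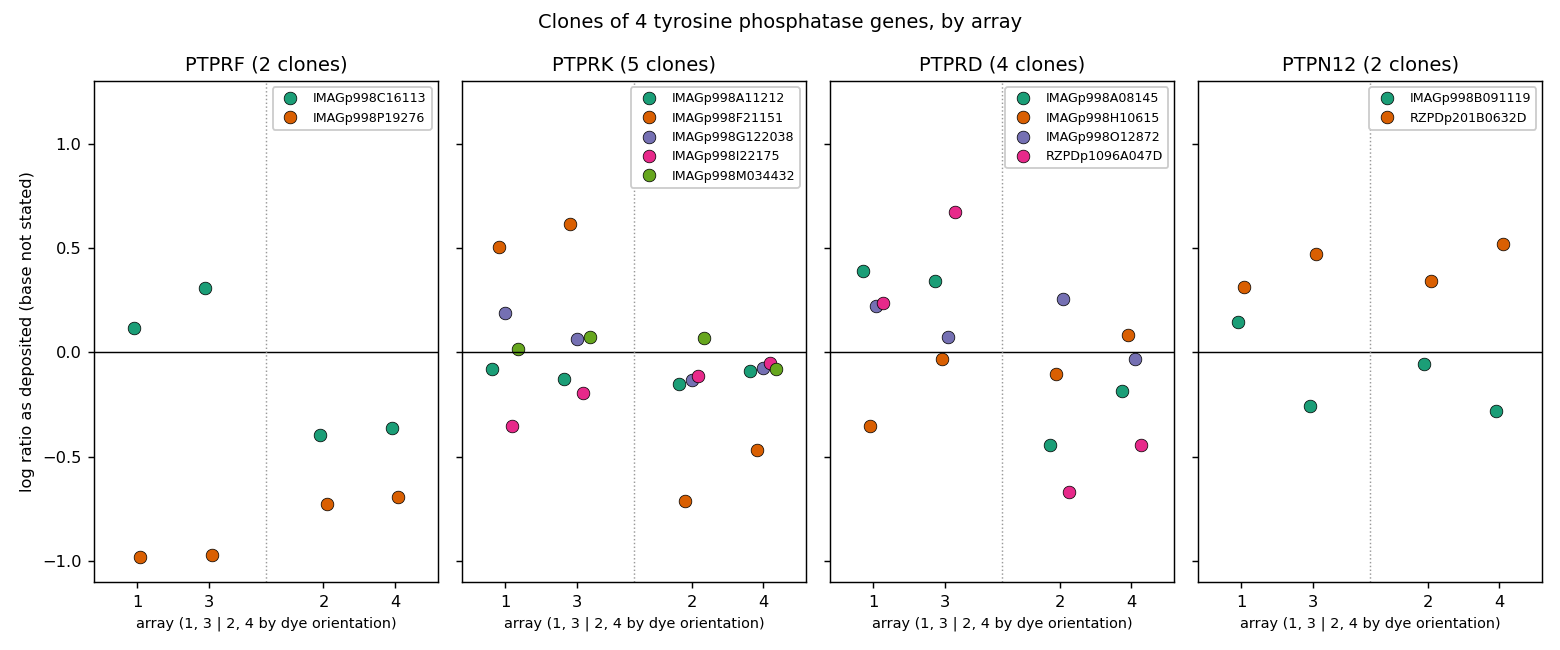
Log ratio as deposited of every clone of PTPRF, PTPRK, PTPRD and PTPN12 on each array, with arrays 1 and 3 left of the dotted line and arrays 2 and 4, of the other dye orientation, right of it. In PTPRF 1 clone stays between -0.98 and -0.69 while the other changes sign with the orientation, and in PTPRK IMAGp998F21151 alone ranges from -0.71 to 0.61.

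The receptor class held 13 genes with 30 probes and the non-receptor class 14 genes with 30 probes. In the shared component 1 receptor probe (3.33%) and 2 non-receptor probes (6.67%) were called. In the alternating component it was 4 receptor probes (13.3%) from 3 genes and 1 non-receptor probe (3.33%). Of all probes 2.07% were called in the shared and 4.28% in the alternating component. Clones of a gene are not independent, and the difference between the classes was not tested. Over genes the shared component had a median of 0.0084 in receptors, 0.028 in non-receptors and 0.0069 in all genes. The median log ratio of the receptor genes was 0.018, -0.038, 0.0050 and -0.048 on arrays 1 to 4, and that of the non-receptor genes 0.051, 0.024, 0.085 and 0.060. The receptor median was the lower on 4 of 4 arrays. Over all genes the medians were 0.0031, 0.015, 0.00041 and 0.011. Against these the receptor median was higher on arrays 1 and 3 and lower on arrays 2 and 4, and the non-receptor median was higher on every array. The median absolute shared component was 0.026 in receptor genes, 0.057 in non-receptor genes and 0.045 in all genes. In the alternating component the order of the classes was the other way, at 0.060, 0.048 and 0.062. Apart from PTPRF (-0.46), the receptor genes next by moderated statistic were PTPRE (-0.067) and PTPRK (-0.055), neither called, and the largest positive receptor gene mean was 0.039. PTPRN, a member of secretory granules without known enzyme activity, had an alternating gene mean of 0.12 (adjusted p = 0.142).

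Among the non-receptor phosphatases PTPN12, or PTP-PEST, acts on proteins of focal adhesions such as p130Cas. Its clone RZPDp201B0632D was at 0.31, 0.34, 0.47 and 0.52 on arrays 1 to 4 (shared 0.41 ± 0.099, SD, n = 4; adjusted p = 0.00493), the highest shared value of the 219 probes. Every array was positive, and the value was called without each array in turn, at 0.37 to 0.46. The other PTPN12 clone, IMAGp998B091119, was at 0.15, -0.055, -0.26 and -0.28, with a shared component of -0.11 (adjusted p = 0.587). The values of the clones did not overlap. Their difference, IMAGp998B091119 minus RZPDp201B0632D, was -0.52 (adjusted p = 0.0189) and was not called without array 3 (-0.38, adjusted p = 0.0563). The mean of both clones was 0.15 ± 0.056 and did not pass (adjusted p = 0.130).

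PTPN13 is a large scaffold-like phosphatase with FERM and PDZ domains. Clone IMAGp998J212516 was at -0.29, -0.21, -0.34 and -0.23 (shared -0.27 ± 0.056, SD, n = 4; adjusted p = 0.0265), negative on every array. Leaving out array 2 (adjusted p = 0.183) or array 4 (adjusted p = 0.200) ended the call. The 4 other PTPN13 clones had shared components between -0.036 and 0.033 and were not called.

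PTPN2, or TC-PTP, dephosphorylates JAK kinases and STAT proteins. Clone RZPDp201G1215D was at 0.28, -0.18, 0.35 and -0.26 (alternating 0.27 ± 0.070, SD, n = 4; adjusted p = 0.0296). Its sign followed the dye orientation on all arrays, and the call was lost without array 2 and without array 4. Of the 3 other clones IMAGp998F013969 had an alternating component of 0.20 (adjusted p = 0.104), and IMAGp998I203328 was within 0.034 to 0.071 on all arrays. At the gene level no non-receptor phosphatase passed in limma in either component, with 2 of 14 at an unadjusted p under 0.05 in the shared and 3 in the alternating one. Over all genes 14.6% reached this p in the shared and 25.6% in the alternating component, the background for the same count in each class that follows. PTPN7, best known from blood cells, came first by moderated statistic in the shared component (0.28, 0.052, 0.23 and 0.26, mean 0.20 ± 0.10; adjusted p = 0.0715). Next was PTPN1, or PTP1B, a phosphatase of the insulin receptor, after PTPN12 (0.082, adjusted p = 0.432). In the alternating component PTPN3 (-0.10, adjusted p = 0.181) and PTPN5 (-0.097, adjusted p = 0.190) followed PTPN2.

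The PTP4A phosphatases, small prenylated enzymes also called PRLs, had 3 genes and 7 probes. PTP4A2 clone IMAGp998D13282 was at 0.21, 0.33, 0.32 and 0.30 (shared 0.29 ± 0.052, SD, n = 4; adjusted p = 0.0208). A further clone, RZPDp1096A038D, was at 0.24, 0.19, 0.22 and 0.25 (shared 0.22 ± 0.027; adjusted p = 0.0578). These clones were positive on all arrays, while RZPDp201C045D (0.31, -0.051, 0.19 and -0.13) and RZPDp202C097D (-0.054, 0.19, -0.055 and 0.076) changed sign with the orientation, in opposite ways. Leaving out array 2 (adjusted p = 0.172) or array 4 (adjusted p = 0.127) ended the call of IMAGp998D13282. No pair of PTP4A2 clones was called. The PTP4A2 gene mean was 0.16 ± 0.024 (adjusted p = 0.0869).

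PTP4A3 was described for its high level in metastatic colorectal cancer. Its probe was at -0.27, -0.13, -0.26 and -0.14, negative on every array. At the gene level it passed (-0.20 ± 0.077, SD, n = 4; adjusted p = 0.0362). The same values did not pass among all probes (adjusted p = 0.0842). Leaving out array 2 (adjusted p = 0.226) or array 4 (adjusted p = 0.228) ended the gene-level call. PTP4A1, as the mean of 2 clones, was at 0.041, 0.14, 0.18 and 0.043 (0.10, adjusted p = 0.347), so that PTP4A1 and PTP4A2 had positive and PTP4A3 negative means. The PTP4A1 clones had shared components of opposite sign, and their difference of 0.27 in size was not called (limma adjusted p = 0.379).

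Dual-specificity phosphatases act on both phosphotyrosine and phosphothreonine, and several switch off MAP kinases. None of 25 probes and none of 19 genes was called in limma. An unadjusted p under 0.05 was reached by 2 of the 19 genes in the shared and 3 in the alternating component, against 14.6% and 25.6% of all genes. DUSP11, an RNA phosphatase, was at -0.24, -0.10, -0.30 and -0.11 (shared -0.19 ± 0.099, SD, n = 4; adjusted p = 0.0511). DUSP10, which acts on JNK and p38, was at -0.18, -0.55, 0.18 and -0.38, with a shared component of -0.23 (adjusted p = 0.119) and an alternating one of 0.23 (adjusted p = 0.0782). DUSP10 was thus negative on 3 of 4 arrays and had about the same size in both components. DUSP16, a JNK phosphatase, was at -0.074 (adjusted p = 0.521) in the shared component. In the alternating one DUSP21 was at 0.22 (adjusted p = 0.102) and DUSP14 at -0.10 (adjusted p = 0.162).

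PP1 had 3 catalytic genes, none called in limma; an unadjusted p under 0.05 was reached by 1 in the shared component and 0 in the alternating one. PPP1CA was at 0.065, 0.18, 0.012 and 0.20 (shared 0.11, adjusted p = 0.231), PPP1CC had a shared component of -0.083 (adjusted p = 0.430) and PPP1CB, over 4 clones, of 0.0071 (adjusted p = 0.958).

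Of the 30 genes for PP1 regulatory subunits PPP1R27 passed in the shared and PPP1R42 in the alternating component. Of all genes 3.04% passed in the shared and 3.29% in the alternating component. An unadjusted limma p under 0.05 was reached by 7 genes (shared) and 8 genes (alternating), against 14.6% and 25.6% of all genes. PPP1R27 was at -0.095, -0.29, -0.23 and -0.26 (shared -0.22 ± 0.085, SD, n = 4; adjusted p = 0.0367 at the gene level), negative on all arrays. Its 1 probe did not pass among all probes (adjusted p = 0.0760). Leaving out array 2 (adjusted p = 0.230) or array 4 (adjusted p = 0.175) ended the call. PPP1R42, a leucine-rich repeat protein, was at 0.58, -0.22, 0.38 and -0.21 (alternating 0.35 ± 0.17; adjusted p = 0.0236 at the gene and 0.0176 at the probe level). Its sign followed the dye orientation on every array. Leaving out array 2 (adjusted p = 0.0880) or array 4 (adjusted p = 0.0783) ended the probe call.

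PPP1R7, or SDS22, is a PP1 partner with leucine-rich repeats and had 3 clones. Clone IMAGp998L09461 was at 0.21, -0.40, 0.48 and -0.084 (alternating 0.29 ± 0.18, SD, n = 4; adjusted p = 0.0485), lost without array 2, array 3 or array 4. It differed from IMAGp998N06617 by 0.35 in that component (adjusted p = 0.0479), a difference of 0.22 to 0.49 on leaving out 1 array, and not called without array 2 or array 3. PPP1R35 had a shared component of 0.17 (adjusted p = 0.0746) and an alternating one of -0.12 (adjusted p = 0.118). PPP1R14C, a PP1 inhibitor, was at 0.14 in the shared component (adjusted p = 0.178), and PPP1R17, likewise a phosphatase inhibitor, at 0.23 in the alternating one (adjusted p = 0.0537).

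PP2A is built from a catalytic, a scaffold and a regulatory subunit. Neither catalytic gene was called in limma (PPP2CB shared 0.14, adjusted p = 0.232; PPP2CA -0.018, adjusted p = 0.909), with 1 of the 2 at an unadjusted p under 0.05 in the shared component and 0 in the alternating one. Of the 29 probes for scaffold and regulatory subunits 0 were called in the shared and 4 in the alternating component (13.8%), against 2.07% and 4.28% of all probes. None of the 11 genes passed as a mean, with 1 at an unadjusted p under 0.05 in the shared component and 2 in the alternating one. The scaffold gene PPP2R1B was at 0.157, 0.119, 0.0555 and 0.175, positive on all arrays (shared 0.13 ± 0.053; adjusted p = 0.199). PPP2R2A (0.065, adjusted p = 0.535) and PPP2R5A (0.061, adjusted p = 0.613), both regulatory subunits, came next.

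The 4 regulatory clones called in the alternating component belonged to different genes. PPP2R5E clone IMAGp998G231999 was at 0.49, -0.28, 0.26 and -0.19 (alternating 0.30 ± 0.13, SD, n = 4; adjusted p = 0.0292). PPP2R2B, a subunit enriched in brain, had 6 clones, of which IMAGp998G22280 was at 0.24, -0.34, 0.17 and -0.28 (0.26 ± 0.073; adjusted p = 0.0312). In these clones arrays 1 and 3 were positive and arrays 2 and 4 negative, while the 2 clones that follow went the other way. PPP2R3A clone IMAGp998D115775 was at -0.31, 0.23, -0.29 and 0.12 (-0.24 ± 0.085; adjusted p = 0.0385). PPP2R3B clone IMAGp998B205508 was at -0.23, 0.23, -0.23 and 0.23 (-0.23 ± 0.0027; adjusted p = 0.0362), mirrored between orientations almost without spread. All 4 calls were lost without array 2 and without array 4, and those of PPP2R3A and PPP2R3B also without array 3. The gene means of PPP2R5E (0.19, adjusted p = 0.0574) and PPP2R3B (-0.18, adjusted p = 0.0607) did not pass. Clone differences were called for 2 of 15 pairs in PPP2R2B and 2 of 3 in PPP2R3A, all in the alternating component. Of all pairs 8.06% were called in that component. Both PPP2R2B pairs lost the call without array 1, 2 or 4, and 1 of them holds IMAGp998D241023, whose value on array 1 (-0.37) lay far from those on the others. In PPP2R3A the pair with IMAGp998L1391 lost it without array 2, 3 or 4, and the pair with IMAGp998P232991 without array 1 or 2.

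Calcineurin, the calcium-dependent phosphatase encoded by PPP3 genes, had 4 genes, all with shared components below 0, from -0.097 (PPP3CC, adjusted p = 0.346) to -0.0020 (PPP3CA). None was called in limma; an unadjusted p under 0.05 was reached by 0 in the shared and 1 in the alternating component, PPP3CC at 0.11 (adjusted p = 0.158). PPP3CB had a shared component of -0.068 (adjusted p = 0.549) and PPP3R1, the regulatory chain, an alternating one of -0.073 (adjusted p = 0.289).

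Of the 9 genes under PP4, PP5 and PP6, which include the antisense RNA PPP4R1-AS1, none was called in limma; an unadjusted p under 0.05 was reached by 0 in the shared and 3 in the alternating component, against 14.6% and 25.6% of all genes. PPP6R3 had a shared component of 0.094 (adjusted p = 0.382) and an alternating one of 0.12 (adjusted p = 0.146). PPP4R1-AS1 was at -0.095 in the shared component (adjusted p = 0.441), and PPP4R3B (-0.12, adjusted p = 0.147) and PPP4R2 (-0.11, adjusted p = 0.166) led the negative side of the alternating one.

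The PPM1 genes encode magnesium-dependent phosphatases that work without the regulatory subunits of PP1 and PP2A. None of 20 probes and 10 genes was called in limma; an unadjusted p under 0.05 was reached by 1 gene in each component. These were PPM1K, a mitochondrial phosphatase of branched-chain amino acid breakdown, at 0.11 in the shared component (adjusted p = 0.316), and PPM1G at 0.20 in the alternating one (adjusted p = 0.107). PPM1A, over 4 clones, had a shared component of -0.041 (adjusted p = 0.704).

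**Figure D3:**
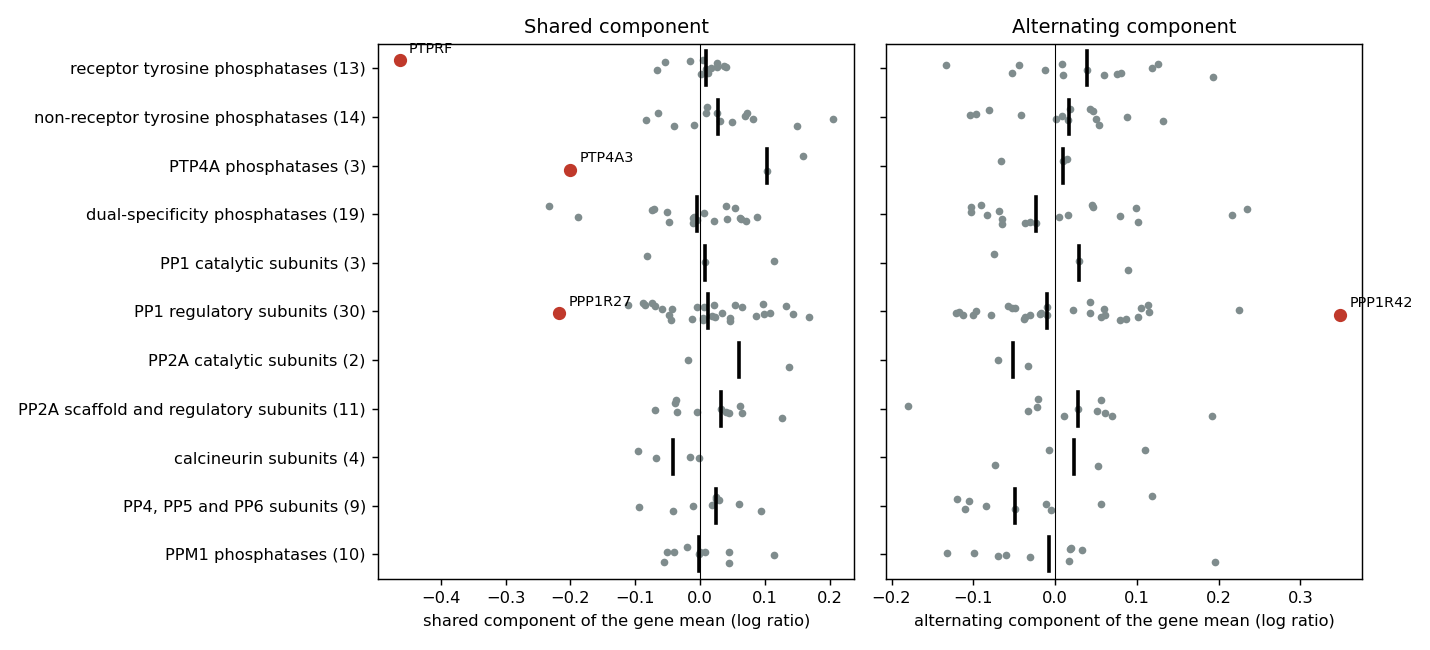
Shared (left) and alternating (right) component of each of the 118 phosphatase gene means by class, with the number of genes in brackets, black bars at class medians and red points for called genes. PTPRF, PTP4A3 and PPP1R27 are the called genes on the left and PPP1R42 on the right, and most other genes lie close to 0.

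At the gene level 3 phosphatases passed in the shared component (PTPRF, PTP4A3 and PPP1R27, 2.54% of 118), all negative, against 3.04% of all 12483 genes. In the alternating component 1 passed (PPP1R42, 0.847%), against 3.29% of all genes. The median shared component was 0.0082 for phosphatase genes and 0.0069 for all genes, with 67 positive and 51 negative members. The median alternating component was 0.0086 for phosphatase genes and -0.0081 for all genes. Leaving out array 1, 2, 3 or 4 gave shared counts of 7, 1, 18 and 1 phosphatase genes, against 798, 179, 1471 and 203 of all genes. The alternating counts were 17, 0, 10 and 0 phosphatase genes, against 2292, 39, 1580 and 69 of all genes. Each limma fit that called 0 had 16 phosphatase genes at an unadjusted p under 0.05. The share of all genes at this p was not counted in those fits, so the 16 have no background.

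Of the 118 genes 58 had 2 or more clones, which formed 167 pairs. Clones of a phosphatase gene had the same sign in 87 pairs (52.1%) in the shared and 78 pairs (46.7%) in the alternating component, against 52.3% and 50.5% of the 14670 pairs over all genes. All clones of a gene had 1 sign in 22 of the 58 genes in the shared and 18 in the alternating component. The same count was not made over all genes with 2 or more clones, so it has no background. The median size of the difference between clones was 0.070 for phosphatase pairs and 0.071 for all pairs in the shared component, and 0.11 for both in the alternating one. Pairs differed beyond their error in 2 cases in the shared component (1.20%, PTPRF and PTPN12), against 1.55% of all pairs. In the alternating component 13 did (7.78%), against 8.06% of all pairs, in PTPRK, PTPRD, PTPRF, PPP2R2B, PPP2R3A and PPP1R7. Pairs of a gene share clones and are not independent. The shared count of pairs was 4 without array 3, 1 of them also called with all arrays, against 454 of all pairs. The alternating count was 8 without array 2, against 521 of all pairs.

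**Figure D4:**
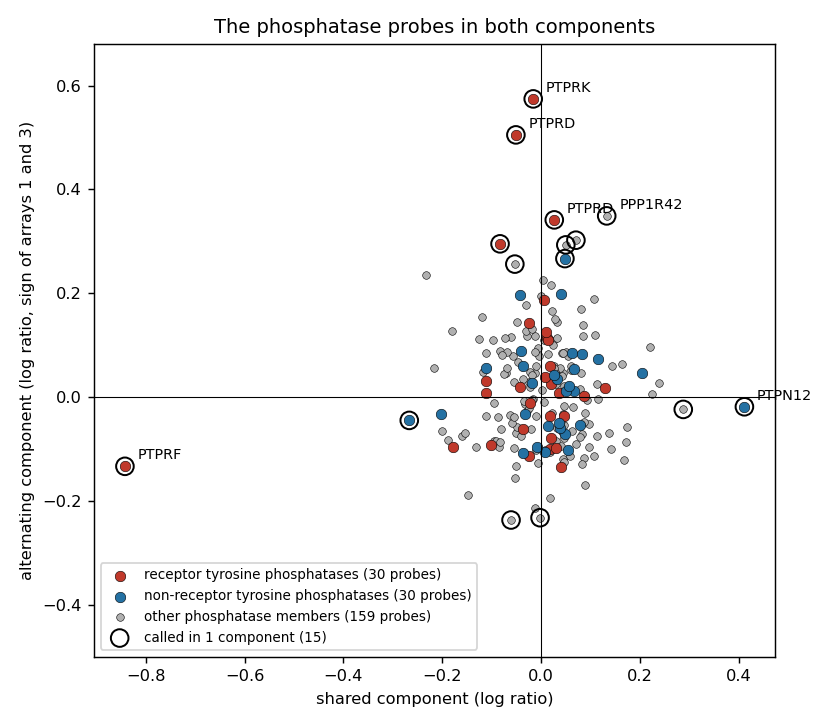
Shared component (horizontal) against alternating component (vertical) of the 219 phosphatase probes, as log ratios, with receptor, non-receptor and other members in different colours and the 15 called probes ringed. Most called probes lie near 1 axis, PTPRF and PTPN12 far out on the horizontal and PTPRK and PTPRD on the vertical one.

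The 15 called probes came from 13 genes, and no probe was called in both components. Of these genes 12 had 2 or more clones, and in PTPRF and PTPRD 2 clones were called. Across the 219 probes, which share arrays and are not independent, Pearson's r was 0.43 between arrays 1 and 3 and 0.57 between arrays 2 and 4. Between arrays of opposite orientation it ranged from -0.20 (arrays 2 and 3) to 0.045 (arrays 1 and 4). The same coefficients over all probes were 0.43, 0.56, -0.16 and 0.028.

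Phosphatases outside these families were counted from a list of 36 genes, 30 of them measured. PPTC7, a mitochondrial phosphatase, was at 0.49, 0.19, 0.48 and 0.12 and passed in the shared component (0.32 ± 0.19, SD, n = 4; adjusted p = 0.00481). MTMR4, a lipid phosphatase of the myotubularin family, was at 0.34, -0.45, 0.24 and -0.30 and passed in the alternating one (0.33 ± 0.089; adjusted p = 0.0236). The 29 others did not pass in each component, among them MTM1 (shared -0.14, adjusted p = 0.147) and the tyrosine phosphatase ACP1 (alternating 0.20, adjusted p = 0.0537). Of all genes 3.04% passed in the shared and 3.29% in the alternating component. In this list 5 genes (shared) and 11 genes (alternating) reached an unadjusted limma p under 0.05, against 14.6% and 25.6% of all genes. None of 26 measured partners and inhibitors of PP1, PP2A and calcineurin was called in limma; an unadjusted p under 0.05 was reached by 4 in the shared and 6 in the alternating component, against 14.6% and 25.6% of all genes. PHACTR2 (0.14, adjusted p = 0.242) and ARPP19 (0.13, adjusted p = 0.268), an inhibitor of PP2A in mitosis when phosphorylated, led in the shared component.

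Log ratios carry no level, so the epithelial identity of A549 could not be checked against its markers. Of 6 measured epithelial markers KRT8 passed in the shared component (0.39, adjusted p = 0.00698). None of 6 fibroblast and 5 endothelial markers passed in limma in that component, with 1 of each at an unadjusted p under 0.05, and TEK was called in the alternating one (-0.20, adjusted p = 0.0439). Of 6 blood markers NKG7 passed in the shared component (-0.26, adjusted p = 0.0141), and the list's gene means ranged from -0.26 to 0.080. In the alternating component 2 epithelial, 3 fibroblast, 2 endothelial and 0 blood markers had an unadjusted limma p under 0.05. Of all genes 3.04% passed in the shared and 3.29% in the alternating component. An unadjusted p under 0.05 was reached by 14.6% and 25.6% of all genes. The part of other cell types in the phosphatase values was not tested.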

How the data were processed

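RNA of paired A549 cultures was measured on 4 two-colour cDNA arrays. The deposited values are 1 log ratio per probe and array, made by the authors with ArrayMagic and VSN (variance-stabilizing normalization) from scanner files, per the series' design text. Versions, spot filters and spot averaging are not stated. VSN compresses ratios of dim spots.

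The deposited log ratios were not normalized again. Gene symbols came from the platform annotation, and all 118 phosphatase symbols matched the GRCh38.p14 gene table, with 0 symbols changed. Probes (26629), genes (the mean of a gene's 1-symbol probes, 12483) and pairs of probes of 1 gene (14670) were each fitted with limma 3.58.1 in R 4.3.3, using an intercept and a dye orientation term. This left 2 residual degrees of freedom, to which moderation added 7.22, 5.89 and 11.5. The p-values are two-sided and adjusted by Benjamini-Hochberg over each whole table, with a threshold of 0.05. They rest on the spread left between arrays of the same orientation, moderated over the whole table, and not on the printed SDs. The fit was tested on simulated data.

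The genes named are those with a called probe (all clones), called genes, called clone pairs, PTPRF and PTPRK, and per class the 3 genes with the largest moderated statistic in each component. The members and lists were chosen with earlier results of these data known. Other settings were a model with no dye term, centring on array medians, scaling to equal median absolute deviation, quantile normalization, moderation that was robust (statmod 1.5.0) or absent, 1-symbol probes, the median of a gene's probes, and leaving out each array. Figures were drawn with matplotlib 3.10.9 (Python 3.11.15).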

Additional observations from a re-analysis of the deposited data

Results flagged for a closer look

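A sample far from the others of its group was found in 2 of 93 sets of 4 values examined, and chance gives about 1 in 20. PPP2R2B clone IMAGp998D241023 was at -0.370 on array 1, against -0.083, -0.074 and -0.088 on arrays 2, 3 and 4. PPP2R5A, a regulatory subunit of PP2A with 1 clone, was at 0.227 on array 1, against 0.0020, 0.017 and -0.0017 on the others, so its shared component of 0.061 rests on that array. Neither was called in either component.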

How the results depend on the processing

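The counts of called phosphatases are given as probes, genes and clone pairs, for the shared component and then the alternating one. Without the dye term, which leaves the other component in the residual, 2, 1 and 0 were called in the shared and 1, 0 and 5 in the alternating component. Over all features the same fit called 231 probes, 156 genes and 58 pairs in the shared and 102, 10 and 179 in the alternating component, so the whole table fell with them. Without moderation, on 2 residual degrees of freedom, 0, 0 and 0 were called in the shared and 1, 0 and 0 in the alternating component. Over all features the same fit called 0, 0 and 0 and 4, 1 and 1. An unadjusted p under 0.05 in this ordinary t-test was reached by 24, 15 and 15 and by 33, 16 and 25 phosphatases. Where the limma fit without the dye term called 0, the unadjusted counts were 11 clone pairs (shared) and 16 genes (alternating). The share of all features at an unadjusted p under 0.05 was not counted in these fits, so these unadjusted counts have no background. With the median of a gene's probes 5 and 3 genes were called, against 413 and 522 of all genes; the cause was not tested. Leaving out each array in turn gave 2 to 7, 1 to 18 and 2 to 4 in the shared component and 1 to 15, 0 to 17 and 8 to 14 in the alternating one. Under median centring, scaling, quantile normalization, robust moderation and 1-symbol probes every count stayed within 1.5 times. Of 34 called values (15 probes, 4 genes and 15 pairs) none changed sign under any alternative run for it. Leaving out the dye term or moderation, robust moderation and 1-symbol probes leave the value itself unchanged, so no sign could change there. Of the 34, 33 lost their call without moderation and 25 without the dye term. Leaving out array 1, 2, 3 or 4 ended 3, 21, 7 and 16 calls. No further pairing was possible, because each log ratio already pairs both cultures of an array and there is 1 group of arrays. With no intensities in the table, dim probes could not be set apart.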

Other observations

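A further 17 probes carried a phosphatase symbol together with another gene's symbol and were left out above. They included 7 probes annotated to VPS16 and PTPRA, 3 to SF3B5 and PTPRG and 2 to RANBP9 and PTPN2. PTPRA, a widely expressed receptor that activates Src-family kinases, was annotated to these probes. None of the 17 was called in limma. An unadjusted p under 0.05 was reached by 1 in the shared and 4 in the alternating component, against 12.5% and 25.2% of all probes. Their shared components ranged from -0.17 to 0.13 and their alternating components from -0.16 to 0.12.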
